A study of Mus musculus with 6 samples.

Results

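Small leucine-rich proteoglycans are secreted matrix proteins built around a short core of leucine-rich repeats, and most members carry glycosaminoglycan chains. They bind collagen fibrils and set fibril spacing and width, and several of them, decorin and biglycan above all, also bind TGF-beta and myostatin outside the cell. In skeletal muscle they are made mainly by fibroblasts of the connective tissue layers and by tendon cells, with some also made by the muscle cells themselves. The 10 genes described here were chosen by symbol (Dcn, Bgn, Lum, Fmod, Ogn, Prelp, Kera, Aspn, Omd and Podn), and all 10 were found among the 23367 gene entries of the expression table.

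Polyadenylated RNA was sequenced from the gastrocnemius, a calf muscle, of wild type FVB mice in 6 libraries. E18.5 was a pool of several male and female animals and PN2 a pool of several males. PN14 had replicates 1 and 2, and PN28 and adult (22 weeks) had 1 library each, all from individual males. Only PN14 therefore gives a spread between mice, and p-values for the other stages borrow it. Each library had a sequencing lane of its own by its column name, so lane and stage cannot be told apart.

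The libraries held between 125402932 and 157868359 counts on genes. All 8 muscle fibre markers were detected in every library, with a summed level between 17720 FPKM at E18.5 and 72803 FPKM at PN28. Levels are given as FPKM (fragment counts scaled by gene length and library size), in which genes can be compared within a library. Fold changes were taken from counts scaled with TMM, which allows for the abundant genes of older muscle. The TMM factor was 1.45 in both the E18.5 and the PN2 library and between 0.714 (adult) and 1.01 (PN14 replicate 2) in the others. Where library size replaced TMM, the median over the tested genes, as log2 fold change, moved from -0.0122 to -0.662 for PN2 to PN14 and from -0.0535 to -1.08 for E18.5 to adult. A gene with a falling FPKM can thus have a flat TMM-scaled value. Calls required a change of at least 2-fold whose p, adjusted by Benjamini-Hochberg over 16882 genes, was under 0.05 in edgeR's quasi-likelihood test, and all 10 members passed the filter on low counts.

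The members lie in clusters in the mouse genome (mm9, GENCODE M1). On chromosome 10, Dcn (96942245 to 96980777), Lum (97028135 to 97035337) and Kera (97069817 to 97076322) follow each other on the plus strand, with epiphycan (Epyc) after them, and no other protein-coding gene lies in the gaps of 47.4, 34.5 and 30.4 kb. On chromosome 13, Aspn (49639812 to 49662926), Omd (49678135 to 49687978) and Ogn (49703440 to 49719869) stand on the plus strand next to Ecm2, with gaps of 11.7, 15.2 and 15.5 kb. These 3 members lie inside Cenpp, a centromere protein gene on the minus strand, without sharing an exon base with it. On chromosome 1, Prelp (135806881 to 135817991, minus strand) and Fmod (135933831 to 135944854, plus strand) are 116 kb apart with no protein-coding gene between them. Bgn is on chromosome X (70728941 to 70741272) and Podn on chromosome 4 (107687396 to 107704942). The gene models have 3 exons in Lum, Fmod, Prelp and Omd, 8 exons in Dcn, Bgn and Aspn, and 13 in Podn, and the coding length runs from 894 bases in Ogn to 1833 in Podn.

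RefSeq promoter windows (GRCm38.p6 table) were at hand for 8 of the 10 members, all but Dcn and Lum, and each was placed in mm9 by exact match. The 150 bases before the RefSeq start are shown for some members. These are the chromosome 13 neighbours, whose levels parted after birth, and the chromosome 1 pair, both of which rose with age. The RefSeq start lies 304 bases before the GENCODE start in Omd and 56 before it in Ogn. In Prelp it lies 13 bases inside the GENCODE gene, and in Aspn and Fmod the starts match. Capitals mark E-boxes (CANNTG, which reads the same on both strands).
Aspn, chr13:49639662-49639811, plus strand: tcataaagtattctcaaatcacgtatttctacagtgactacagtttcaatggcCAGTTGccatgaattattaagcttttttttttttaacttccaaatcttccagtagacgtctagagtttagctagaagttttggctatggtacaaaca
Omd, chr13:49677681-49677830, plus strand: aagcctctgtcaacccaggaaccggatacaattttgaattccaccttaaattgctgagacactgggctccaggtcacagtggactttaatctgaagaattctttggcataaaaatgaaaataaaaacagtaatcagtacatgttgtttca
Ogn, chr13:49703234-49703383, plus strand: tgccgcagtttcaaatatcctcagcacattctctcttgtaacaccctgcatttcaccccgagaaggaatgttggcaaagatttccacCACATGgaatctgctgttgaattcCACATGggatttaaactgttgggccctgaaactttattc
Prelp, chr1:135817979-135818128, minus strand: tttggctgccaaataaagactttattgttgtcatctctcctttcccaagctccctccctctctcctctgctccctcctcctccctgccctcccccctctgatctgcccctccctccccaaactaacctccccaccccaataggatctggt
Fmod, chr1:135933681-135933830, plus strand: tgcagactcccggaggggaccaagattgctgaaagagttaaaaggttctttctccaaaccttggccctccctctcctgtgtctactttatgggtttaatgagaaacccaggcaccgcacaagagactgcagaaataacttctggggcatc
In the 250 bases before the start, an E-box was present in 5 of the 8 members and in 66.0% of 27025 gene promoters. A TATA box (TATAAA on either strand) was present in Aspn and Ogn and in 13% of all promoters. In Ogn the pair of matches overlap, as the motif read on opposite strands, and they lie 222 to 229 bases before the start. The AP-1 motif TGANTCA was in 0 of the 8 members and in 6.87% of promoters, CCAAT in 3 members and 34.5%, and GGGCGG in 2 members and 32.9%. No match of another motif overlapped an E-box in these members. The matches describe these windows only.

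**Figure D1:**
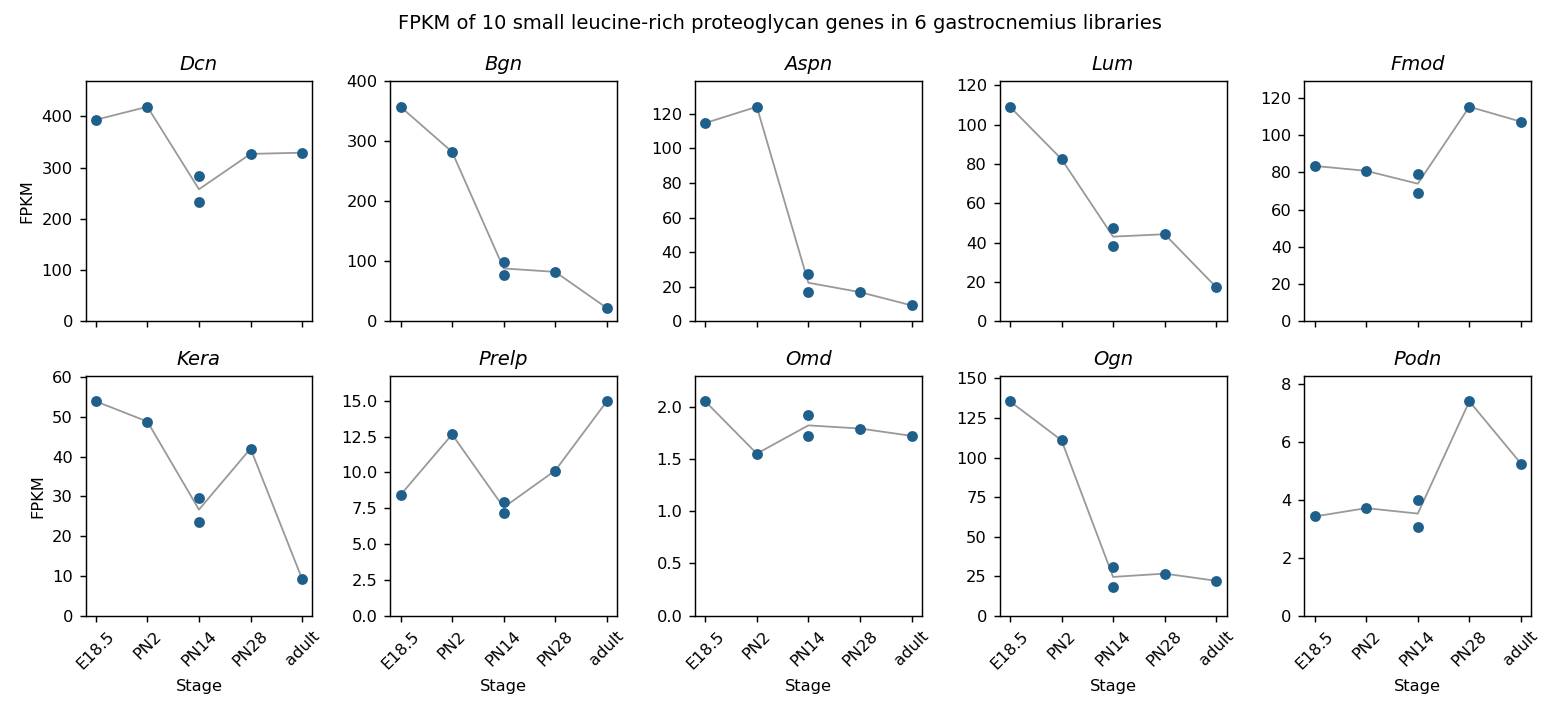
FPKM (vertical axis, linear from 0, own scale per gene) of each of the 10 genes at the 5 stages. Points are libraries and the line joins stage means, so only PN14 has 2 points. Aspn, Ogn, Bgn, Lum, Kera and Dcn are lower in every library from PN14 on than at PN2. Fmod, Prelp and Podn have their highest level at PN28 or in the adult.

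Decorin (Dcn), which carries a dermatan or chondroitin sulfate chain and is the best known collagen-binding member, was the most abundant of the family by FPKM in every library. It showed 393 FPKM at E18.5 and 419 at PN2, then 232 and 283 in PN14 mice 1 and 2, 327 at PN28 and lastly 329 for the adult. In rank among all entries it stood between 172 at PN2 and 299 in PN14 replicate 1. Biglycan (Bgn), its nearest relative, showed 357 FPKM at E18.5 and 282 at PN2, then 77.4 and 98.6 in the PN14 mice, 82.2 at PN28 and lastly 22.0 for the adult. The adult value lay below all others, and both PN14 values lay well below PN2. Asporin (Aspn), the remaining class I member, which has a stretch of aspartates in place of a glycosaminoglycan chain, showed 115 FPKM at E18.5 and 124 at PN2, then 17.1 and 27.4 in the PN14 mice, 16.8 at PN28 and lastly 9.16 for the adult. Its E18.5 and PN2 values lay above those of every later library. In FPKM, which carries no TMM scaling, the same held for Dcn, Bgn, Lum, Kera and Ogn. Dcn had a log2 fold change of only -0.06 from PN2 to PN14 with TMM scaling. The share of all genes with such a gap was not counted.

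Among the class II members, which can carry keratan sulfate, lumican (Lum), a regulator of fibril width, showed 109 FPKM at E18.5 and 82.5 at PN2, then 38.5 and 47.6 in the PN14 mice, 44.3 at PN28 and lastly 17.3 for the adult. Fibromodulin (Fmod), which binds collagen at the same region as lumican and is abundant in tendon, had 83.5, 80.8, 78.9 and 68.9, 115 and 107 FPKM in the same order. Unlike lumican it was highest in the PN28 and adult libraries. Keratocan (Kera), best known from the cornea, had 53.9, 48.8, 23.7 and 29.7, 42.0 and 9.24 FPKM, with a higher value at PN28 than at PN14. Prelp, whose basic N-terminus binds heparan sulfate, had 8.43, 12.7, 7.15 and 7.97, 10.1 and 15.0 FPKM. Osteomodulin (Omd), a protein of bone matrix, was the least abundant, with 2.05, 1.55, 1.92 and 1.72, 1.79 and 1.72 FPKM, and its later libraries lay between its E18.5 and PN2 values.

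The class III member osteoglycin (Ogn), also called mimecan, showed 136 FPKM at E18.5 and 111 at PN2. It then had 18.1 and 31.0 in the PN14 mice, 26.7 at PN28 and lastly 22.1 for the adult. Podocan (Podn), of class V, had 3.43 and 3.72 FPKM at E18.5 and PN2, 3.99 and 3.07 in the PN14 mice, 7.41 at PN28 and lastly 5.26 for the adult. Its PN14 values straddled the earlier ones, and the PN28 and adult values lay above them. Between highest and lowest stage mean, FPKM differed 16.2-fold for Bgn, 13.5-fold for Aspn, 6.31-fold for Lum, 6.13-fold for Ogn and 5.83-fold for Kera. The other members spanned between 1.32-fold (Omd) and 2.16-fold (Podn). With TMM scaling the spans were 7.97-fold for Bgn, 6.66-fold for Aspn, 4.13-fold for Kera, 4.0-fold for Podn, 3.61-fold for Prelp, 3.56-fold for Ogn and 3.10-fold for Lum, and between 1.68-fold (Dcn) and 2.70-fold (Fmod) for the rest. The order of the members by span thus depended on the scaling.

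The order of levels changed with age. At E18.5 it ran Dcn, Bgn, Ogn, Aspn, Lum, Fmod, Kera, Prelp, Podn, Omd, and in the adult Dcn, Fmod, Ogn, Bgn, Lum, Prelp, Kera, Aspn, Podn, Omd. At PN14, where a spread is known, Bgn (88.0 ± 15.0 FPKM, SD, n = 2 mice) and Fmod (73.9 ± 7.04) exchanged places between the replicates and did not differ beyond it. Kera (26.7 ± 4.24) and Ogn (24.6 ± 9.07) also exchanged places. Aspn (22.2 ± 7.32) came after both in each mouse, with ranges over the mice that overlapped theirs. Dcn (258 ± 36.0) and Lum (43.0 ± 6.48) stood apart from their neighbours. Between the PN14 mice, the log2 FPKM of replicate 2 minus replicate 1 ran from -0.38 for Podn to 0.77 for Ogn. With TMM scaling this difference ran from -0.64 for Podn to 0.51 for Ogn.

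Shares within a library do not depend on scaling between libraries. Of the summed FPKM of the 10 genes, Dcn made up 31.2% at E18.5 and 35.9% at PN2, then 46.5% and 47.3% in the PN14 mice, 48.5% at PN28 and lastly 61.2% for the adult. Fmod went from 6.62% at E18.5 and 6.93% at PN2 to 15.8% and 11.5% in the PN14 mice, 17.1% at PN28 and lastly 19.9% for the adult. Bgn had 28.3%, 24.2%, 15.5% and 16.5%, 12.2% and 4.09%. Ogn and Aspn together had 2 of the 4 largest shares at E18.5, 10.7% and 9.09%, and 4.11% and 1.70% in the adult. The family as a whole took 0.276% of all counts at E18.5 and 0.254% at PN2, then 0.107% and 0.127% in the PN14 mice, 0.145% at PN28 and lastly 0.115% for the adult. The TMM-scaled sum was 1901 CPM at E18.5 and 1747 at PN2, then 1277 and 1267 in the PN14 mice, 1842 at PN28 and lastly 1609 for the adult. On that scale PN14 was lowest and PN28 lay between E18.5 and PN2.

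**Figure D2:**
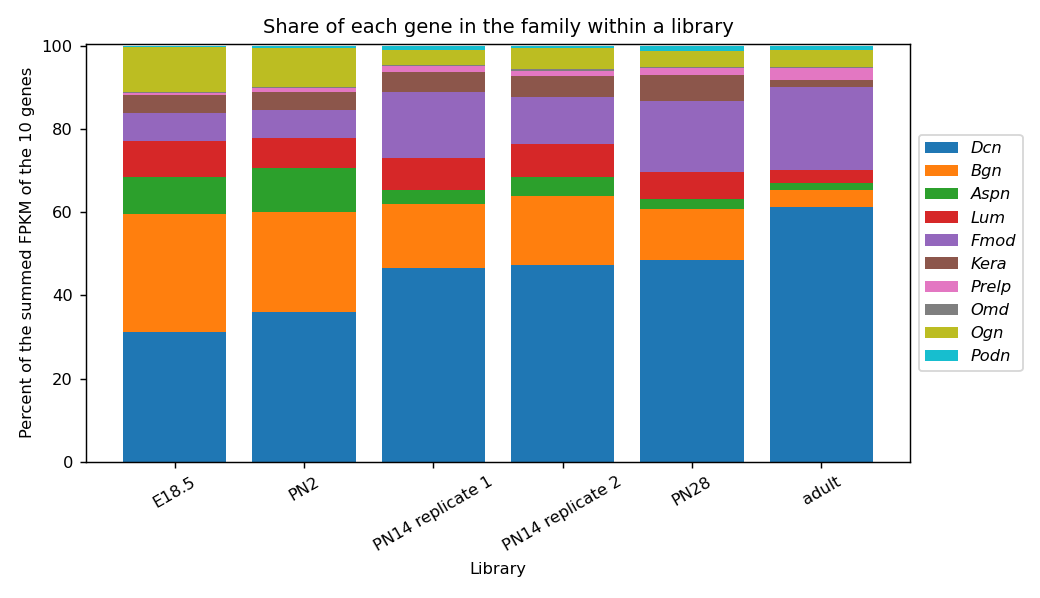
Each bar is 1 library and is divided by the percent that each of the 10 genes contributed to their summed FPKM (vertical axis, 0 to 100). Dcn grows from 31.2% at E18.5 to 61.2% in the adult, and Bgn shrinks from 28.3% to 4.09%.

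The ratio of Bgn to Dcn in FPKM was 0.909 at E18.5 and 0.674 at PN2, then 0.333 and 0.348 in the PN14 mice, 0.252 at PN28 and lastly 0.0669 for the adult. Each step between stages was larger than the gap between the PN14 mice. The ratio of Aspn to Dcn was 0.292 at E18.5 and 0.296 at PN2, and lay between 0.0278 and 0.0969 in the later libraries. That of Fmod to Lum, the pair that shares a collagen site, went from 0.765 and 0.980 at E18.5 and PN2 to 2.05 and 1.45 in the PN14 mice, 2.60 at PN28 and lastly 6.20 for the adult.

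Over the whole course from E18.5 to adult, Bgn, Aspn, Lum, Ogn and Kera fell and Prelp, Podn and Fmod rose. The 8 of 10 members called compare with 44.9% of all genes in this contrast. The 5 that fell compare with 23.6% of all genes and the 3 that rose with 21.4%. Bgn fell by 2.99 on the log2 scale (standard error 0.333, adjusted p = 0.0018, edgeR quasi-likelihood test) and Aspn by 2.62 (standard error 0.297, adjusted p = 0.00184, same test). Lum fell by 1.63, Ogn by 1.59 and Kera by 1.52, with adjusted p from 0.00273 for Kera to 0.00889 for Ogn (edgeR). Prelp rose by 1.85 (standard error 0.204, adjusted p = 0.00175, edgeR), Podn by 1.64 (adjusted p = 0.00965, edgeR) and Fmod by 1.39 (adjusted p = 0.02, edgeR). Dcn and Omd had log2 fold changes of 0.75 and 0.77 that did not pass (adjusted p = 0.152 and 0.118, edgeR). With library size alone 5 members were called, 0 rising and 5 falling, beside 1347 rising and 7700 falling genes in all. Prelp, Podn and Fmod then had log2 fold changes of 0.83, 0.62 and 0.36, and Dcn and Omd turned to -0.28 and -0.25. The median log2 fold change of the members was -0.38, that of all genes tested -0.0535, and each stage has 1 library.

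**Figure D3:**
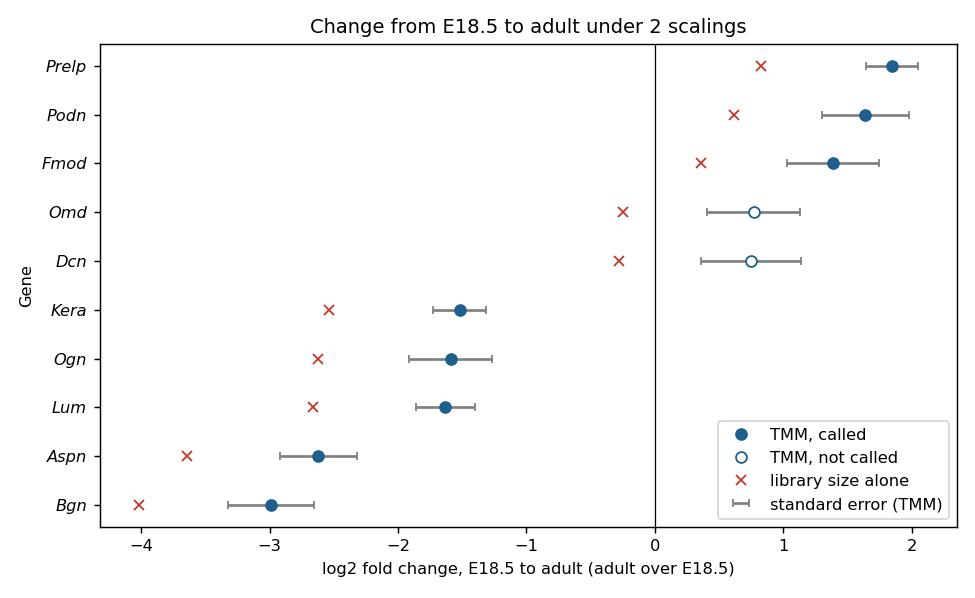
log2 fold change from E18.5 to adult (horizontal axis) per gene, as circles with standard errors for TMM scaling (filled where called) and as crosses for library size alone. Prelp, Podn and Fmod lie right of 0 under both scalings, Bgn, Aspn, Lum, Ogn and Kera lie left of 0 under both, and Dcn and Omd change side.

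From E18.5 to PN2 no member was called (0 of 10, with 0.0296% of all genes called). DESeq2 and the exact test of edgeR also called 0 members, beside 164 and 346 of all genes. By the quasi-likelihood test 1 member had an unadjusted p under 0.05. This was Prelp, with a log2 fold change of 0.59 (adjusted p = 0.607, edgeR), and the other 9 lay between -0.40 and 0.12.

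From PN2 to PN14, Aspn, Ogn and Bgn fell. These 3 of 10 members stand beside 23.0% of all genes called in either direction and 11.2% called as falling. Aspn fell by 1.84 on the log2 scale, which is 3.59-fold (standard error 0.233, adjusted p = 0.00638, edgeR quasi-likelihood test). Ogn fell by 1.55 (standard error 0.262, adjusted p = 0.0117, same test) and Bgn by 1.03 (standard error 0.259, adjusted p = 0.0319, same test). The same 3 were called under every alternative scaling, test and filter tried. Without PN14 replicate 1 their log2 fold changes were -1.65, -1.31 and -0.99, and without replicate 2 they were -2.08, -1.83 and -1.08, values that carry no test. The other 7 members lay between -0.29 for Lum and 0.91 for Omd (adjusted p from 0.0812 for Omd to 0.905 for Dcn, edgeR). Dcn, whose FPKM was lower at PN14, had a log2 fold change of -0.06 with TMM scaling. Its TMM-scaled level was 529 CPM (counts scaled to the TMM library size) at PN2 and 502 and 513 in the PN14 replicates.

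From PN14 to PN28 no member was called by the quasi-likelihood test (0 of 10, with 0.0178% of all genes called), while 4 had an unadjusted p under 0.05. All but Aspn were higher at PN28, and the median of the members was 0.48 against -0.0146 over all genes tested. Without PN14 replicate 2 Aspn had 0.06 and Omd -0.02, so the signs of these small values rested on that library. Podn had the largest value, 1.28 (standard error 0.277, adjusted p = 0.411, edgeR quasi-likelihood test), and was called with edgeR's exact test, with which 1 member and 241 of all genes passed, but not with DESeq2's Wald test, with which 0 members and 135 of all genes did. Its TMM-scaled level was 14.8 and 9.53 CPM in the PN14 replicates and 29.5 at PN28, above both. Kera had 0.89, Fmod 0.86 and Prelp 0.65 (adjusted p from 0.342 to 0.556, edgeR). For Kera the PN14 replicates lay at 53.5 and 56.0 CPM and PN28 at 102. From PN2 to PN28, both intervals together, Podn (1.88) and Fmod (1.40) rose and Aspn (-1.99) and Ogn (-1.17) fell, with adjusted p from 0.00931 to 0.0379 (edgeR). These 4 of 10 stand beside 27.0% of all genes, the 2 rising beside 14.3% and the 2 falling beside 12.7%. With library size alone 0 rose and 3 fell, since Bgn (-1.78) was then called and Podn (0.99) and Fmod (0.51) were not, while over all genes 852 rose and 6299 fell under that scaling. Omd (1.10, adjusted p = 0.0651, edgeR quasi-likelihood test) was not called, but it passed by the exact test of edgeR (adjusted p = 0.0436) and without a filter (adjusted p = 0.0477, edgeR).

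From PN28 to adult, Kera fell. It went from 102 to 24.6 CPM after TMM scaling, or -2.05 on the log2 scale (SE 0.212, adjusted p = 0.0398, edgeR quasi-likelihood test), and 1 of 10 members called compares with 0.521% of all genes in either direction and 0.361% falling. Bgn had -1.76 and Lum -1.22, with adjusted p = 0.0713 and 0.076 (edgeR), so that they did not pass. The call of Kera was lost when only genes with a mean of at least 1 CPM were tested (adjusted p = 0.0684, edgeR). Under library size alone, without a filter, or by the edgeR exact test or DESeq2, Bgn and Lum were called as well, while the count over all genes went from 88 to between 817 and 1146. Prelp had 0.70 (adjusted p = 0.162, edgeR), and Dcn, Fmod, Omd and Ogn lay between -0.13 and 0.14.

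**Figure D4:**
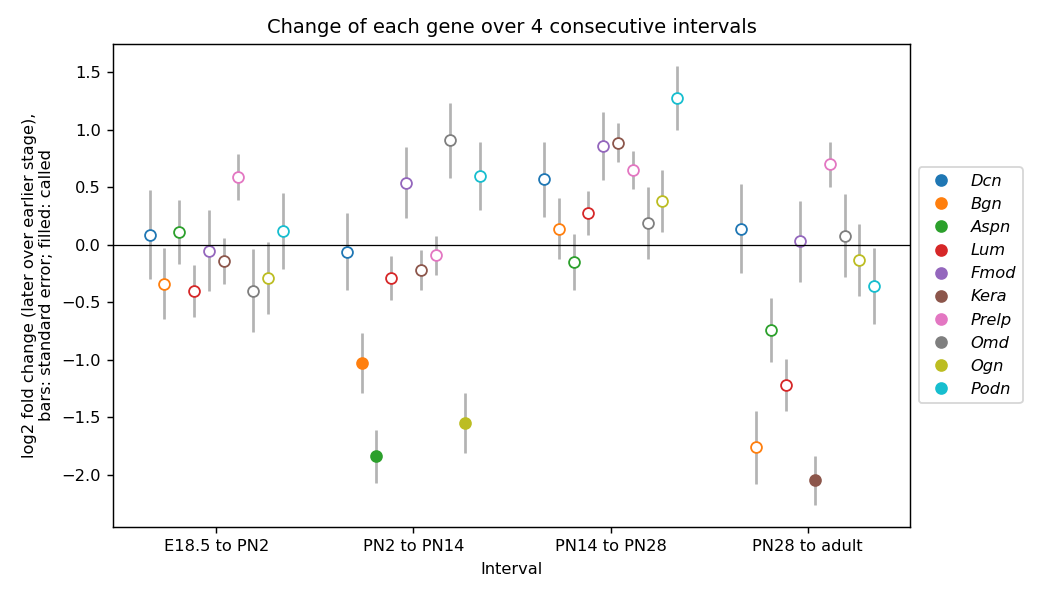
log2 fold change of each gene (vertical axis, later over earlier stage, TMM scaling) over the 4 consecutive intervals, with standard errors. Filled circles were called. Aspn, Ogn and Bgn are filled from PN2 to PN14 and Kera from PN28 to adult, and all circles are open in the other intervals.

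Neighbours on a chromosome did not all follow the same course. In the chromosome 13 group, Aspn and Ogn fell from PN2 to PN14 while Omd, which lies between them, had 0.91 and did not pass. The ratio of Aspn to Omd in FPKM was 55.9 at E18.5 and 80.0 at PN2, 8.89 and 15.9 in the PN14 mice, 9.40 at PN28 and lastly 5.33 for the adult. That of Ogn to Omd was 66.1 and 71.6, then 9.45 and 18, 14.9 and 12.9, while that of Ogn to Aspn stayed between 0.894 and 2.41. Cenpp, the gene around them, had 5.36 and 5.16 FPKM at E18.5 and PN2 and between 0.69 and 2.20 later. The sources used here do not say whether counting used strand, so reads of Cenpp introns and of these members were not separated here. In the chromosome 10 group, the ratio of Lum to Dcn went from 0.278 at E18.5 to 0.0526 in the adult, and that of Kera to Lum lay between 0.494 and 0.948, highest at PN28. On chromosome 1, the ratio of Fmod to Prelp lay between 6.39 and 11.4 in all libraries, and both genes were called as rising from E18.5 to adult. A noncoding gene on the other strand, Gm15851, shares 350 exon bases with Prelp, and its part in the Prelp counts was not tested.

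**Figure D5:**
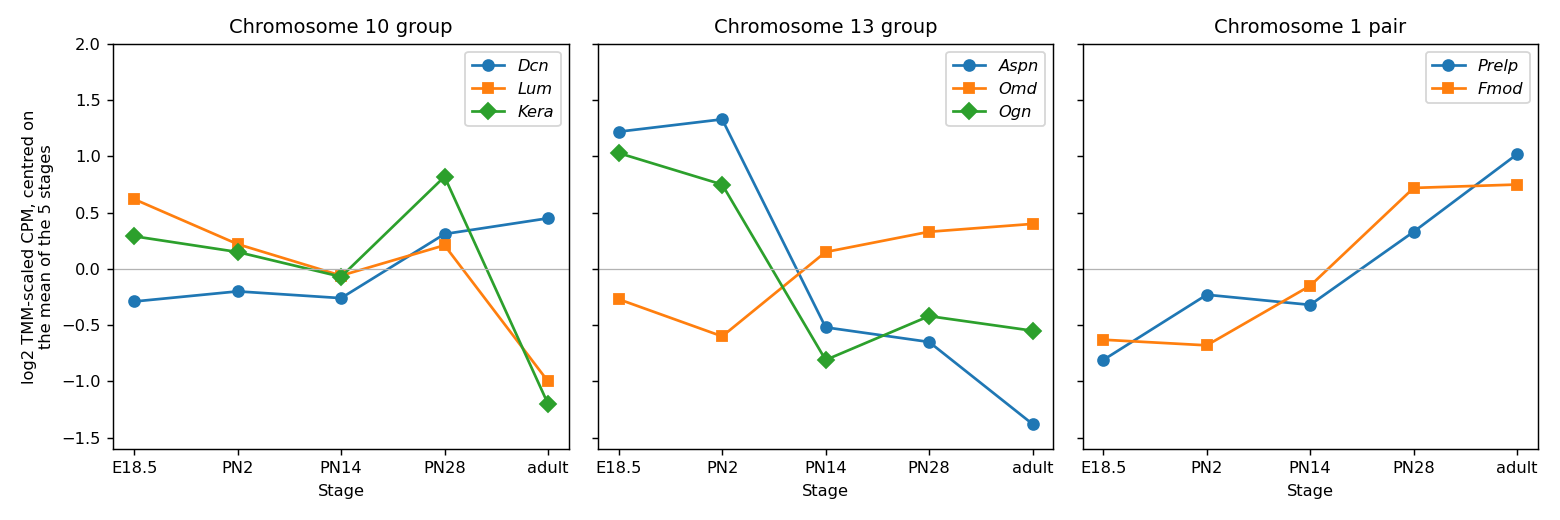
log2 of the TMM-scaled CPM (plus 0.5), centred on the mean of the 5 stages (vertical axis), for the members on chromosomes 10, 13 and 1. Omd goes from -0.60 at PN2 to 0.40 in the adult while Aspn goes from 1.33 to -1.38, and Prelp and Fmod end at 1.02 and 0.75.

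Members with similar courses were compared by the root mean square distance of these centred profiles over 5 stages. The closest pair was Fmod and Podn (0.192 log2 units), then Dcn and Omd (0.255), Fmod and Prelp (0.311) and Lum and Kera (0.325). The farthest was Aspn and Podn (1.80). Over all genes tested with at least 10 CPM at some stage, the gene nearest to Bgn was Loxl2 (0.106). The gene nearest to each of the other members was Dagla for Dcn (0.0502), Atp10a for Lum (0.0879), Pknox2 for Fmod (0.0756), Ago2 for Ogn (0.0749), Rxrg for Prelp (0.0538), 1500015O10Rik for Kera (0.193), Tmeff2 for Aspn (0.0699), Fam13c for Omd (0.0329) and Slc25a30 for Podn (0.138). The comparison rests on 5 points per gene.

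The other genes of this family were mostly low. Of 9 other family genes (Epyc, Ecm2, Chad, Chadl, Nyx, Optc, Tsku, Podnl1 and Nepn), 1 rose and 3 fell from PN2 to PN14. Of the same genes, 3 rose and 4 fell from E18.5 to adult. Over all genes, 1988 of 16882 rose and 11.2% fell from PN2 to PN14, and 21.4% rose and 23.6% fell from E18.5 to adult. Called family genes outside the rule for named genes were chosen after their values were seen. Chadl and Podnl1 fell from PN2 to PN14. From E18.5 to adult, Ecm2 and Nepn rose, and Epyc, Optc and Podnl1 fell. Chondroadherin (Chad), a cartilage protein that binds cells and collagen, showed 3.93 FPKM at E18.5 and 1.76 at PN2, then 14.2 and 5.4 in the PN14 mice, 13.7 at PN28 and lastly 21.2 for the adult, and it rose by 3.19 on the log2 scale from PN2 to PN14 (SE 0.717, adjusted p = 0.0237, edgeR). Tsukushi (Tsku), which binds BMP factors, had 12 and 9.57 FPKM at E18.5 and PN2 and between 0.69 and 2.01 later. Its log2 fold change from PN2 to PN14 was -1.90 (adjusted p = 0.00638, edgeR). Ecm2, beside Aspn on chromosome 13, stayed between 5.73 and 10.7 FPKM. It had 5.73 at E18.5 and 6.42 in the adult, and its log2 fold change of 1.19 was with TMM scaling. Epyc, beside Kera, had at most 0.63 FPKM, and Optc, Podnl1 and Nepn had at most 0.40, 0.37 and 0.26. In the adult, Epyc and Podnl1 had 1 count each and Optc had 0.

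Fibrillar collagens and other fibril proteins, the partners these proteoglycans bind, fell in many cases. Of 18 genes, 10 fell and 1 rose from PN2 to PN14, with a median log2 fold change of -1.16, and 15 fell and 1 rose from E18.5 to adult, with a median of -3.77 against -0.38 for the 10 members. For this and the lists that follow, 1988 of all 16882 genes rose and 11.2% fell from PN2 to PN14. From E18.5 to adult, 23.6% fell and 21.4% rose. Among genes of at least 10 CPM at PN2 or PN14, the largest falls from PN2 to PN14 were those of tenascin C (Tnc, -2.86), the fibril-associated collagens Col12a1 (-2.67) and Col14a1 (-2.34) and fibronectin (Fn1, -1.78), with adjusted p from 0.00301 to 0.0136 (edgeR). Comp, a cartilage and tendon matrix protein, was the gene that rose (1.49, adjusted p = 0.0448, edgeR). Like the other risers below, it is named after its value was seen. So are the fibrillar collagens Col1a1 (-0.77), Col1a2 (-0.74), Col3a1 (-1.02) and Col5a3 (-0.68), which were not called from PN2 to PN14 (adjusted p from 0.0923 to 0.391, edgeR). Col5a1, Col5a2 and Col11a1 were called as falling in that interval. From E18.5 to adult all of these collagens were called as falling.

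Of the enzymes that build glycosaminoglycan chains, most that were called fell. Of 27 genes, 11 fell and 0 rose from PN2 to PN14 and 18 fell and 2 rose from E18.5 to adult, with medians of -0.46 and -1.24. The 2 that rose were Fam20b (1.06), the kinase of the linker xylose, and Csgalnact2 (1.47), which starts chondroitin chains. The chondroitin polymerases Chsy1 (-1.72) and Chpf (-1.35), the dermatan epimerase-like Dsel (-1.30) and the sulfotransferase Chst3 (-1.21) had the largest falls from PN2 to PN14 among genes of at least 10 CPM at either stage (adjusted p from 0.00577 to 0.019, edgeR). Of 18 genes of matrix proteases, crosslinking and processing, 6 fell and 1 rose from PN2 to PN14 and 13 fell and 2 rose from E18.5 to adult, with medians of -0.84 and -2.18. Stromelysin (Mmp3) rose in both comparisons (3.12 and 4.35), and Pcolce2 (1.46) from E18.5 to adult. Mmp3 was low throughout, with 8 and 9 counts at E18.5 and PN2 and 74 counts (0.30 FPKM) in the adult. Mmp9 (-3.23), the procollagen peptidase Adamts14 (-2.05), lysyl oxidase (Lox, -1.61) and the membrane protease Mmp14 (-1.43) had the largest falls from PN2 to PN14 among genes of at least 10 CPM at either stage, with adjusted p from 0.00336 to 0.0162 (edgeR). Collagenase 3 (Mmp13), below that limit at PN2 and PN14 and named after its value was seen, fell further (-4.60, adjusted p = 0.00425, edgeR). A list of 12 genes held TGF-beta ligands, receptors and latent binding proteins, and also Tgfbi and Ctgf. Of these, 1 fell and 0 rose in either comparison, with a median of -0.44 in both. The gene that fell was Ltbp2, named after its value was seen, from 1.98 FPKM at PN2 to 0.13 and 0.10 in the PN14 replicates (log2 fold change -3.45, adjusted p = 0.00404, edgeR).

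Markers of cells that can make these proteins were summed in the same libraries as FPKM, which carries no TMM scaling. The 7 fibroblast markers summed to 479 FPKM at E18.5 and 542 at PN2, then 166 and 242 in the PN14 mice, 199 at PN28 and lastly 113 for the adult, and none was at 0 counts. Of these, 1 fell from PN2 to PN14 (Cd248, -1.10), and 4 fell (Pdgfra, Mfap5, Clec3b and Cd248) and 1 rose (Dpep1) from E18.5 to adult. The 4 tendon cell markers summed to 227 and 276 FPKM at E18.5 and PN2, 93.2 and 87.4 in the PN14 mice, 108 at PN28 and lastly 63.9 for the adult. Of them 1, the tenocyte gene Tnmd, fell in both the PN2 to PN14 and the PN28 to adult interval (-1.34 and -1.81). From E18.5 to adult 2 fell (Tnmd and Mkx) and 0 rose. Thbs4, with 44.7 of the 63.9 FPKM in the adult, was not called in that comparison (0.29, adjusted p = 0.574, edgeR). The 8 osteoblast markers summed to 59.0 and 50.8 FPKM at E18.5 and PN2 and to between 4.51 and 6.88 later, and 6 fell and 1 (Alpl, also made outside bone) rose from PN2 to PN14. Their defining gene Ibsp had 33.7 and 35.6 FPKM in the early libraries and at most 1 count in any later library. The 8 chondrocyte markers, which include Chad and Comp, summed to 92.0 FPKM at E18.5 and to between 18.3 and 37.1 later, and from PN2 to PN14 those 2 rose and 4 fell (Col2a1, Acan, Matn1 and Col9a1). In whole muscle, fewer cells of a type and less RNA per cell cannot be told apart, and the part of these cell types in the falls of Aspn, Ogn, Bgn, Lum and Kera was not tested.

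The remaining markers were counted from E18.5 to adult, where 44.9% of all genes were called, 21.4% as rising and 23.6% as falling. Of 8 muscle fibre markers 4 rose and 0 fell, of 4 satellite cell markers 4 fell, of 4 endothelial markers 0 were called, and of 4 adipocyte markers 3 rose. Of 4 Schwann cell markers 2 rose, of 4 macrophage markers 2 fell, and all 4 red blood cell and all 3 keratinocyte markers fell. The Schwann cell markers summed to 214 and 851 FPKM in PN14 replicates 1 and 2, a larger gap between these mice than for any of the 10 members.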

How the data were processed

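RNA-seq of gastrocnemius muscle from wild type FVB mice was compared over 5 stages in 6 libraries. The authors aligned paired reads to mm9 with TopHat 2.0.5, and RSEM was run on RefSeq gene models; strand handling is not given in the sources used here. The expected counts deposited by the authors are whole numbers without normalization. The FPKM values deposited by the authors come from the same RSEM run and were used as levels, with no test.

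Counts were analysed in R 4.3.3 with edgeR 4.0.16 (TMM, filterByExpr by stage, quasi-likelihood test) in a single fit of all libraries with the stage as group. Residual freedom came from the PN14 pair (1 degree, with 4.86 added as prior), and the common coefficient of biological variation was 0.188. Standard errors were derived from the log2 fold change and the F statistic of this test. They measure no spread between animals at stages with 1 library. A log2 fold change of 1 or more in size at an adjusted p below 0.05 was called. A count of 3 was the detection floor (0.0190 to 0.0239 CPM, counting error only). The test was tested on simulated data. Alternatives were library size or DESeq2 size factors, DESeq2 1.42.0, edgeR's exact test, no filter, a mean of at least 1 CPM, and either PN14 library left out.

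All members were named, and of 5 gene lists up to 4 called genes with the largest change from PN2 to PN14 at 10 CPM or more, with exceptions stated. Members, lists and the 12 marker lists were chosen with earlier results of these data known. Coordinates are from GENCODE M1 (mm9) and promoter sequences from RefSeq. Python 3.11.15, pandas 2.3.3 and matplotlib 3.10.9 were used. Of the table, 4 entries share a symbol with another, none of them a member.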

Additional observations from a re-analysis of the deposited data

How the results depend on the processing

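The calls from PN2 to PN14 held under each scaling, test and filter tried, and the count of 0 between E18.5 and PN2 did too. For PN14 to PN28, edgeR's exact test called 1 member in place of 0, and 241 of all genes in place of 3. From PN28 to adult, library size alone, edgeR's exact test, no filter and DESeq2's Wald test each called 3 in place of 1, and a mean of at least 1 CPM called 0. Over all genes these counts were 868, 1146, 835, 817 and 13 in place of 88. From PN2 to PN28 the exact test and no filter called 5 in place of 4, adding Omd. Over all genes the counts were then 5369 and 4869 in place of 4566. From E18.5 to adult, library size alone called 5 in place of 8, while over all genes it called 9047 in place of 7584. Library size alone also turned the sign of uncalled values. From PN2 to PN14 Fmod became -0.13 and Podn -0.07, from PN14 to PN28 Bgn became -0.10 and Omd -0.02, and from PN28 to adult Fmod became -0.10 and Omd -0.06. From PN2 to PN28 Dcn became -0.37, Prelp -0.32 and Kera -0.22, and from E18.5 to adult Dcn became -0.28 and Omd -0.25. DESeq2's size factors changed no call of a member. With counts in place of FPKM, the share of Dcn in the family was 26.1% at E18.5 and 30.3% at PN2, then 39.3% and 40.5% in the PN14 mice, 41.0% at PN28 and lastly 51.7% for the adult. By counts Bgn had the largest share at E18.5, 30.3%. Leaving out a PN14 library left no test. It moved Podn from 0.60 to 0.25 or 0.89 for PN2 to PN14, and without replicate 2 Aspn (-0.15) became 0.06 and Omd (0.19) became -0.02 for PN14 to PN28. Every stage but PN14 has 1 library, so no spread between animals is known there. The depth, with at least 410 counts for each member in every library, did not limit detection.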
